A study of Mus musculus with 8 samples.

Results

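The genes described here code for enzymes that break down reactive oxygen species or join glutathione to harmful compounds. The 10 genes, Gpx1, Gpx3, Gpx4, Gstm1, Gstm2, Gsta4, Sod1, Sod3, Cat and Hmox1, were taken by name from a table of marker genes for 12 cell clusters. Of these, 9 had at least 1 entry and Gsta4 had none. They held 49 of the 13337 entries of the table, an entry being 1 gene in 1 cluster, and 9 of its 3903 gene symbols.

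White preadipocytes from the inguinal fat of C57BL/6 mice, either wild type (WT) or lacking HMGN1 and HMGN2 (Hmgn1-/- and Hmgn2-/-, DKO), were profiled by single-cell RNA-seq (scRNA) to follow the browning of white fat cells. Cells were collected as preadipocytes at day 0 and at day 6 of differentiation, after a medium with insulin, dexamethasone, IBMX, T3 and rosiglitazone and then a maintenance medium with insulin and T3. There were 2 samples for each of the 4 groups of genotype and day, 8 in all, from cultures of mice aged 8 to 12 weeks that were run as biological duplicates. The table pools the cells of all 8 samples and clusters them, so genotypes and days could not be set against each other and the values below describe clusters only.

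Cells remove superoxide, hydrogen peroxide and lipid peroxides in successive steps. Superoxide dismutases turn superoxide into hydrogen peroxide, which catalase splits in peroxisomes and which glutathione peroxidases reduce with glutathione. Glutathione transferases attach glutathione to reactive compounds, many of them products of lipid oxidation, and haem oxygenase degrades haem to biliverdin, iron and carbon monoxide. Fat cells that burn or store much lipid produce hydrogen peroxide in mitochondria and peroxisomes, and several of these enzymes are known to increase when preadipocytes mature.

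The measurement used was detection, the percent of cells in which at least 1 transcript of a gene was counted. The table gives it inside each cluster and in all other cells. A difference of at least 10 percentage points between these values is called higher or lower below. Clusters were formed from the same cells and genes, so setting a cluster against the rest is a description and not a test, and no p-value is given. There is no replicate behind any value. The study's methods give targets for cells and reads, but the numbers reached in each cluster are unknown. No error or counting interval could therefore be attached. A gene without an entry for a cluster missed a minimum that the authors set there, so its detection in that cluster is not given and need not be 0. Whether a value reflects more cells with the transcript or more transcripts per cell cannot be told from detection alone.

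Clusters 4 and 10 stood apart, since the median listed gene was detected in 10.8% of cluster 4 and in 63.0% outside it, and in 8.1% of cluster 10 against 62.4%. Markers of the labelled cells were present, with entries for 6 of 8 preadipocyte genes and 6 of 6 adipocyte genes. The lists of 6 immune, 3 endothelial, 3 glial and 3 erythroid markers had 0 entries, and the study's methods state that immune, glial and endothelial cells were removed before the final clustering. Clusters are given by number and not as cell types.

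The largest positive difference was that of Cat, which codes for catalase, in cluster 11. Among the other members, Sod3 had the largest, 36.5 points in cluster 1. Within cluster 11, Cat was followed by Sod1, the cytosolic copper and zinc superoxide dismutase, with 33.4 points. Cluster 11 was the smallest cluster, with a share of 1.5% of all cells as solved from the detection values. The largest, cluster 0, had a share of 14.3%. Cat and Sod1 were detected in nearly every cell of cluster 11, which was also the cluster with the highest detection of adipocyte markers. Their promoter windows are shown for this reason. Of the 10 genes, 7 had a promoter window in RefSeq (GRCm38.p6), from 250 bases before to 50 after the start of the gene. Sod3, Hmox1 and Gsta4 were not matched. Capitals mark 3 motifs searched on both strands, TGACNNNGC (the core of the antioxidant response element), CCAAT and GGGCGG, so that a match on the other strand is printed as its reverse complement. The Cat window is on the minus strand of chromosome 2 (chr2:103485104-103485403) and the Sod1 window is on the plus strand of chromosome 16 (chr16:90220512-90220811).
Cat: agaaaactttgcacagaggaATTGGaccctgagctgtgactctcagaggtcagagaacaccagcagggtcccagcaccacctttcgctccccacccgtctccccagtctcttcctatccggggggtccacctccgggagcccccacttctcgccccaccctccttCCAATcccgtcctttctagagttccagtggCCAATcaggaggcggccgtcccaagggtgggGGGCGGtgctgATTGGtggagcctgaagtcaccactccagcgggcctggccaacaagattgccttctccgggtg
Sod1: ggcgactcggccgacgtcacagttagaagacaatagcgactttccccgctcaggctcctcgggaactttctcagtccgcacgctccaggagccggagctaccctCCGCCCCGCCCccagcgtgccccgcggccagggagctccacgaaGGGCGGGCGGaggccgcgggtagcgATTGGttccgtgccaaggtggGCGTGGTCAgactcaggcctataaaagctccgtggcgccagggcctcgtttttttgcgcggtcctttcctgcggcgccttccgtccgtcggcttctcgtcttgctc

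The Sod1 window held 1 match to TGACNNNGC, at bases 195 to 203 on the opposite strand, counted from 1 at the first base printed. The Cat window held 0 matches to it, as did every window of the other 5 genes matched, Gstm1 and Gpx4 having several each. Over all 32851 promoter windows, 12.4% held this motif, 37.4% held CCAAT and 35.7% held GGGCGG. Cat had 4 matches to CCAAT and 1 to GGGCGG. Sod1 had 1 match to CCAAT and 4 to GGGCGG, which overlap in pairs and are printed as joined runs of capitals. These matches describe letters in a short window and were not tied to any of the values below.

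Cat (chromosome 2, 103453849 to 103485160, minus strand of GRCm38, the mm10 build, as are all positions below) is a protein-coding gene listed for 9 clusters. Its detection was 98.9% in cluster 11, 75.4% in cluster 8 and 66.5% in cluster 6. Next came cluster 9 with 38.1%, then clusters 4, 0, 5 and 1 with 30.4%, 30.3%, 29.9% and 28.9%, and last cluster 10 with 2.7%. Clusters 11, 8 and 6 thus lay well above all other clusters with an entry, and clusters 0, 1, 4 and 5 lay between 28.9% and 30.4%, an order with no spread to judge it by.

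In all cells outside cluster 11, Cat was detected in 37.1%, which is 61.8 percentage points less than inside it. The difference was 39.8 points in cluster 8 and 30.8 points in cluster 6. Among the 2487 entries of cluster 11, Cat ranked 77 by this difference, and among the 1126 of cluster 8 it ranked 34. It was lower in cluster 1, with a difference of -10.6 points, and in cluster 10, with -36.5 points. Over all cells, Cat was detected in 38.0%, a value solved from the cluster shares, and the mean over clusters 2, 3 and 7, which have no entry, came to 37.0%.

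In cluster 4 the detection of Cat was 30.4% against 38.8% elsewhere. That difference of -8.4 points was small beside the median of -47.2 points over the 2072 entries of cluster 4, and Cat ranked 117 there. Cat also had less room to fall, since the median listed gene was detected in 63.0% outside cluster 4. All 6 other member genes with an entry in cluster 4 were lower by at least 10 points, as were 92.8% of all entries of the cluster.

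**Figure D1:**
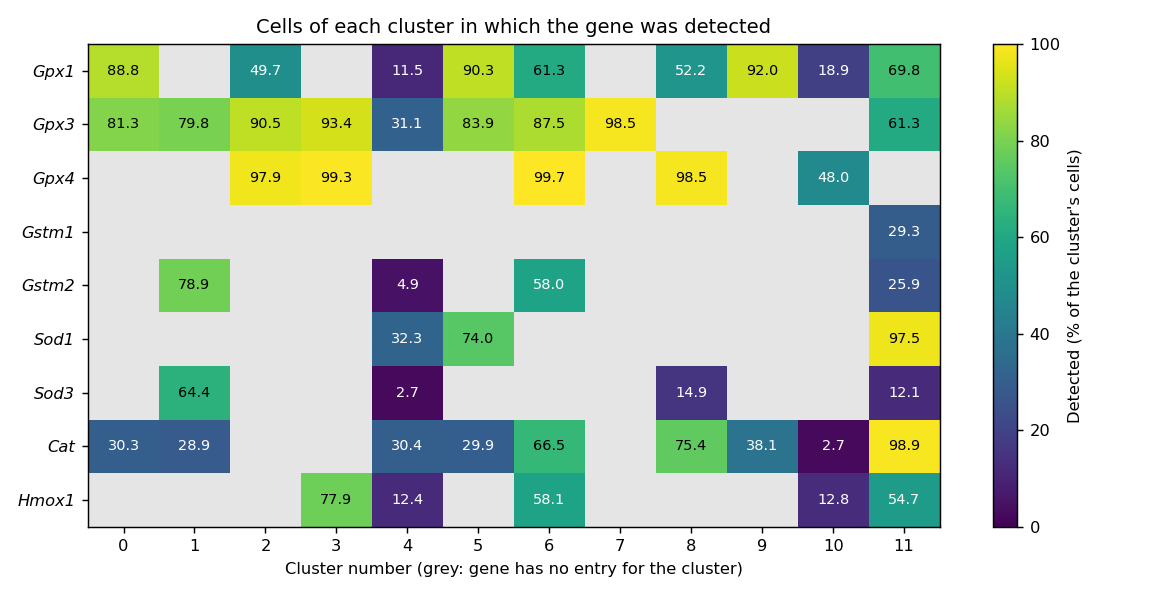
Percent of the cells of each cluster (x axis, cluster number) in which each member gene (rows) was detected, by colour and printed value, with grey where the gene has no entry. Cat reached 98.9% and Sod1 97.5% in cluster 11, Gpx1 reached 92.0% in cluster 9, and Gstm2 and Sod3 had their largest values, 78.9% and 64.4%, in cluster 1.

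Among the 6 adipocyte markers, Plin1 and Cd36 were highest in clusters 11, 8 and 6, as Cat was. In cluster 4 their differences were 15.0 and 43.7 points, where that of Cat was -8.4. In cluster 9, Cd36 differed by -27.6 points and Cat by 0.1. Adipoq was detected in 92.1% of cluster 11 and has no entry for clusters 8 and 6, and Cidec has entries for clusters 4 and 11 only. Plin1, which coats lipid droplets, was detected in 99.8% of cluster 11, 50.6% of cluster 8 and 45.5% of cluster 6, and in 1.3% and 0.6% of clusters 0 and 1. Cd36, a fatty acid transporter, was detected in 99.8%, 87.7% and 78.2% of clusters 11, 8 and 6. Lpl did not share this order, with detection in 88.4% to 100% of every cluster with an entry other than cluster 10. Fabp4 was detected in 57.3% and 53.3% of clusters 0 and 1, and in 98.5% of cluster 4. Of the 6 adipocyte markers, cluster 11 had 5 with higher detection, and clusters 8 and 6 had 3 each. Of all entries of clusters 11, 8 and 6, 44.4%, 26.2% and 51.9% were higher. In cluster 4, 4 of these markers were higher, where Cat was not, and in cluster 2, 4 were higher while Cat has no entry. Of all entries of clusters 4 and 2, 0.8% and 24.6% were higher. The part of these markers in the values of Cat was not tested.

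**Figure D2:**
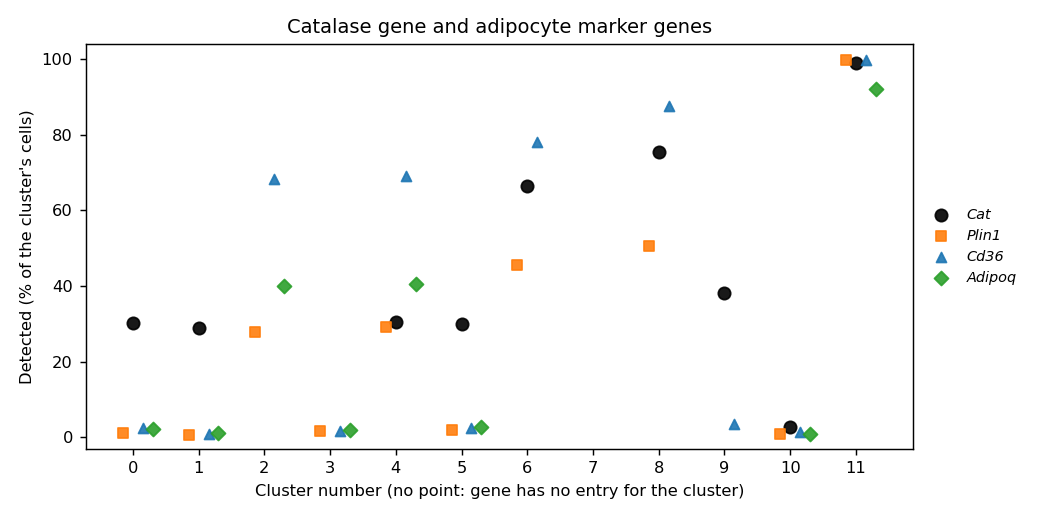
Percent of cells with Cat (black circles) and with the adipocyte markers Plin1, Cd36 and Adipoq, by cluster number, with points set slightly apart sideways and no point where a gene has no entry. Cat and the markers are all above 92% in cluster 11, and in clusters 0 and 1 Cat stays near 30% while the markers are at 2.5% or less.

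The genes with the most similar profile to Cat, over the 7 clusters other than 4 and 10 that list it, were Adipor2 and mt-Nd6. Adipor2 codes for an adiponectin receptor and mt-Nd6 for a mitochondrially encoded subunit of respiratory complex I. The root mean square gap between their differences of detection and those of Cat was 3.46 and 9.81 percentage points, the smallest among 116 genes listed for the same 7 clusters. The detection of Adipor2 was 98.6% in cluster 11, 79.6% in cluster 8 and 70.2% in cluster 6. These cells are the ones that Cat was measured in, so both profiles share depth and cluster makeup.

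The superoxide dismutases differed from one another. Sod1 (chromosome 16, 90220754 to 90226329, plus strand) had entries in 3 clusters and was detected in 97.5% of cluster 11 and in 64.1% outside it. Its detection was 74.0% against 63.7% in cluster 5, a difference of 10.3 points beside a median of 25.9 over all entries there. In cluster 4 its detection was 32.3% against 68.0%. Cluster 11 was thus the highest of the 3, and Sod1 ranked 676 of its 2487 entries by the difference. Sod1 was detected in 64.6% of all cells and in 66.8% over the 9 clusters without an entry. Of the 50-base stretches in the last 500 bases of its coding transcripts, 30.2% recur in Gm8566, and Sod1 overlaps Scaf4 on the opposite strand. How far either affects its values was not tested.

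Sod3 codes for the superoxide dismutase that is secreted and held at the cell surface and matrix (chromosome 5, 52363791 to 52371418, plus strand). In cluster 11 it was lower where Sod1 was higher, with detection in 12.1% of cluster 11 and in 33.4% outside it. In cluster 4 it was lower, as Sod1 was, at 2.7% against 36.3%, and in cluster 8, for which Sod1 has no entry, it was detected in 14.9% against 34.2%. Cluster 1 was its highest, at 64.4% against 27.9%, where Sod3 ranked 30 of 729 entries by the difference. In cluster 1, 4 preadipocyte markers were also higher, among them Mmp3, a matrix-degrading protease detected in 87.7% of its cells against 42.6%. Cluster 3 had 3 preadipocyte markers higher and clusters 0 and 7 had 2 each, and Sod3 has no entry for these clusters. Of all entries of clusters 1, 3, 0 and 7, 58.8%, 48.7%, 66.0% and 59.8% were higher. In cluster 11, 5 preadipocyte markers were lower, such as Pdgfrb, the receptor for platelet-derived growth factor B, in 12.4% against 65.0%. Of all entries of cluster 11, 28.7% were lower. The part of these markers in the values of Sod3 was not tested.

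Among the glutathione peroxidases, Gpx1 and Gpx3 had different profiles. Gpx1, the widespread cytosolic and mitochondrial enzyme (chromosome 9, 108338903 to 108340343, plus strand), had entries in 9 clusters. Its detection was 92.0% in cluster 9, 90.3% in cluster 5 and 88.8% in cluster 0, followed by clusters 11, 6, 8 and 2 with 69.8%, 61.3%, 52.2% and 49.7%. Clusters 10 and 4 were lowest, at 18.9% and 11.5%. The differences from all other cells were 26.5, 25.5 and 25.3 points in clusters 9, 5 and 0, and -19.8 and -15.8 points in clusters 2 and 8. The clusters where Gpx1 was least detected, leaving out 4 and 10, were thus 2, 8 and 6, of which 8 and 6 were among the 3 highest for Cat.

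Over the 7 clusters other than 4 and 10 that list Gpx1, the nearest profiles among 181 genes were those of Vps29, a part of the retromer that sorts membrane proteins, and Anxa1, a phospholipid-binding annexin. Their root mean square gaps were 5.07 and 5.83 points. In cluster 5, the difference of Gpx1 was close to the median of all entries there, 25.9 points, and in cluster 9 the median was 23.95 points.

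Gpx3 codes for the secreted glutathione peroxidase of plasma (chromosome 11, 54902453 to 54910377, plus strand). Its entries in 9 clusters were highest in cluster 7, at 98.5% of the cells against 77.5% of the others. Cluster 3 followed with 93.4%, then clusters 2, 6, 5, 0 and 1 with 90.5%, 87.5%, 83.9%, 81.3% and 79.8%. Cluster 11, at 61.3% against 79.2%, and cluster 4, at 31.1% against 84.0%, lay below these. The nearest profiles among 36 genes listed for the same 8 clusters were those of Serpinh1, a collagen chaperone, and Arpc1b, a subunit of the actin-branching Arp2/3 complex, with root mean square gaps of 8.87 and 10.2 points. These gaps were wider than the gap between Cat and Adipor2. In clusters 7 and 11, Serpinh1 had differences of 8.8 and -1.8 points where Gpx3 had 21.0 and -17.9 points.

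Gpx4, which reduces lipid peroxides within membranes and guards against ferroptosis (chromosome 10, 80047166 to 80056439, plus strand), was detected in 93.7% of all cells. It was detected in 97.9% to 99.7% of clusters 2, 3, 6 and 8 and in 93.1% to 93.4% of the cells outside each of them, which leaves little room for a higher value. In cluster 10 it was detected in 48.0% against 95.2%. Of the 50-base stretches in the last 500 bases of its coding transcripts, 89.9% are also found in another gene, mainly in Gpx4-ps2. Whether this affects its values was not tested.

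The glutathione transferases Gstm1 and Gstm2 conjugate glutathione to electrophiles and both lie on chromosome 3 (Gstm1 at 108012255 to 108017973 and Gstm2 at 107981702 to 107986453, minus strand). Gstm2 was detected in 78.9% of cluster 1 and in 53.7% outside it, in 58.0% of cluster 6 against 57.2%, in 25.9% of cluster 11 against 57.7% and in 4.9% of cluster 4 against 62.8%. Its highest cluster was thus also that of Sod3, and both were lower in cluster 11. Gstm1 had a single entry, for cluster 11, with 29.3% against 33.1%, a difference under the minimum of 10 points. Of the 50-base stretches at the end of their coding transcripts, 23.0% for Gstm1 and 10.1% for Gstm2 recur in related genes, with Gstm3 and Gstm2-ps1 the main ones for Gstm1. Gsta4, an alpha-class transferase that acts on the lipid peroxidation product hydroxynonenal (chromosome 9, 78182774 to 78209349, plus strand), had no entry in any cluster, so no value can be given.

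Hmox1, the inducible haem oxygenase (chromosome 8, 75093621 to 75100589, plus strand), was highest in cluster 3, with 77.9% of the cells against 56.2% of the others, where it ranked 41 of 427 entries. In clusters 6 and 11 its detection was 58.1% and 54.7%, beside 58.4% and 58.5% outside them, differences of -0.3 and -3.8 points. In clusters 4 and 10 it was detected in 12.4% against 63.3% and in 12.8% against 59.9%. Over the 7 clusters without an entry, its mean detection was 64.2%.

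Counted over all clusters, 14 of the 49 member entries were higher in their cluster and 17 were lower. Of all entries in the table, 40.0% were higher and 37.4% lower. Without clusters 4 and 10, 14 of 38 member entries were higher and 7 lower, against 50.4% and 22.4% of all entries. The median difference of the members was 4.95 points there, against 10.2 points for all entries.

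In cluster 11, 2 of 8 member entries were higher, Cat and Sod1, and 3 were lower, Gpx3, Sod3 and Gstm2, where 44.4% of all entries of the cluster were higher and 28.7% lower. In cluster 8, 1 of 4 was higher, Cat, and 2 were lower, Gpx1 and Sod3, against 26.2% and 45.6% of all entries. In cluster 6, 1 of 6 was higher, again Cat, and 0 were lower, against 51.9% and 14.9%. In cluster 4, 6 of 7 were lower, and 92.8% of all entries were. In cluster 10, 4 of 4 were lower, and 98.5% of all entries were. The counts in clusters 4 and 10 thus lay near those of all listed genes.

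**Figure D3:**
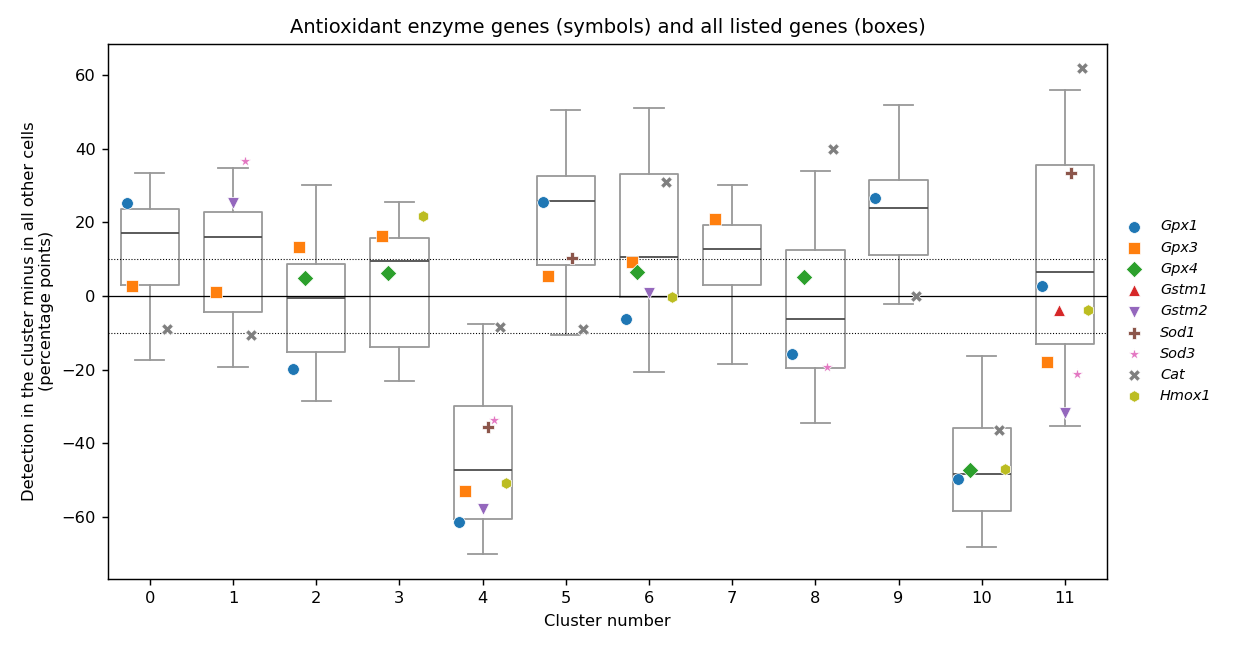
Detection in each cluster minus detection in all other cells, in percentage points, for each member gene (symbols) by cluster number. Boxes show the quartiles and median of all entries of the cluster, whiskers the 5th and 95th percentiles, and dotted lines the minimum of 10 points. Cat lies above the whisker in clusters 8 and 11, and Sod3 in cluster 1.

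Other genes of glutathione and redox metabolism were taken from a list of 61, of which 39 had an entry. Over all clusters, 63 of their 172 entries were higher and 55 lower, where 40.0% of all entries of the table were higher and 37.4% lower. In cluster 11, 16 of 29 entries were higher and 6 lower, with a median difference of 11.4 points, against a median of 6.6 over all entries of the cluster. The count of 16 can be read beside the 44.4% of all entries that were higher there, and that gap was not tested.

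Enzymes that supply NADPH, which keeps glutathione and thioredoxin reduced, were higher in cluster 11 for all 4 genes with an entry. Of all entries of cluster 11, 44.4% were higher. Nqo1, a quinone reductase put in the same group of the list, had no entry in any cluster. In cluster 11, G6pdx, the first enzyme of the pentose phosphate pathway, was detected in 84.5% against 28.5%. Me1, malic enzyme, was detected in 78.1% against 33.0%, Idh1, which makes NADPH from isocitrate, in 99.5% against 55.0%, and Pgd, also of the pentose phosphate pathway, in 94.1% against 54.3%. Several of these enzymes also supply NADPH for fatty acid synthesis.

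Mitochondrial enzymes were also among the higher ones. Prdx3, the mitochondrial peroxiredoxin, was detected in 94.2% of cluster 11 against 49.5%, Txn2, mitochondrial thioredoxin, in 97.1% against 68.1%, and Sod2, the manganese superoxide dismutase of mitochondria, in 99.8% against 76.8%. By the difference they ranked 326, 747 and 839 among the 2487 entries of cluster 11. The largest difference on the list was that of Mgst3, a microsomal glutathione transferase, with 86.0% against 20.6%. Mgst1, a membrane-bound transferase of the endoplasmic reticulum and mitochondria, was higher in cluster 11, with 99.8% against 81.3%, and in cluster 8, with 96.7% against 80.7%, as Cat was, and also in cluster 7, with 95.2% against 80.6%, where Cat has no entry. Mgst1 ranked 887 in cluster 11, and in cluster 7 its 14.6 points lay near the median of all entries, 12.85 points.

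The lower genes in cluster 11 were led by Selenom, a selenoprotein of the endoplasmic reticulum, with 18.7% against 75.6%, and Gpx8, a peroxidase of the same compartment, with 29.1% against 66.8%. Gpx7, also of the endoplasmic reticulum, was detected in 9.7% against 41.8%. Among the genes that regulate the response, Nfe2l2, which codes for NRF2, was detected in 74.3% against 66.3%, under the minimum, and Bach1, its repressor at shared sites, was lower, with 28.1% against 39.4%. For glutathione synthesis, Gclm, the modifier subunit of the rate-limiting ligase, was higher, at 72.8% against 61.0%, and Gclc, its catalytic subunit, has no entry for cluster 11.

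**Figure D4:**
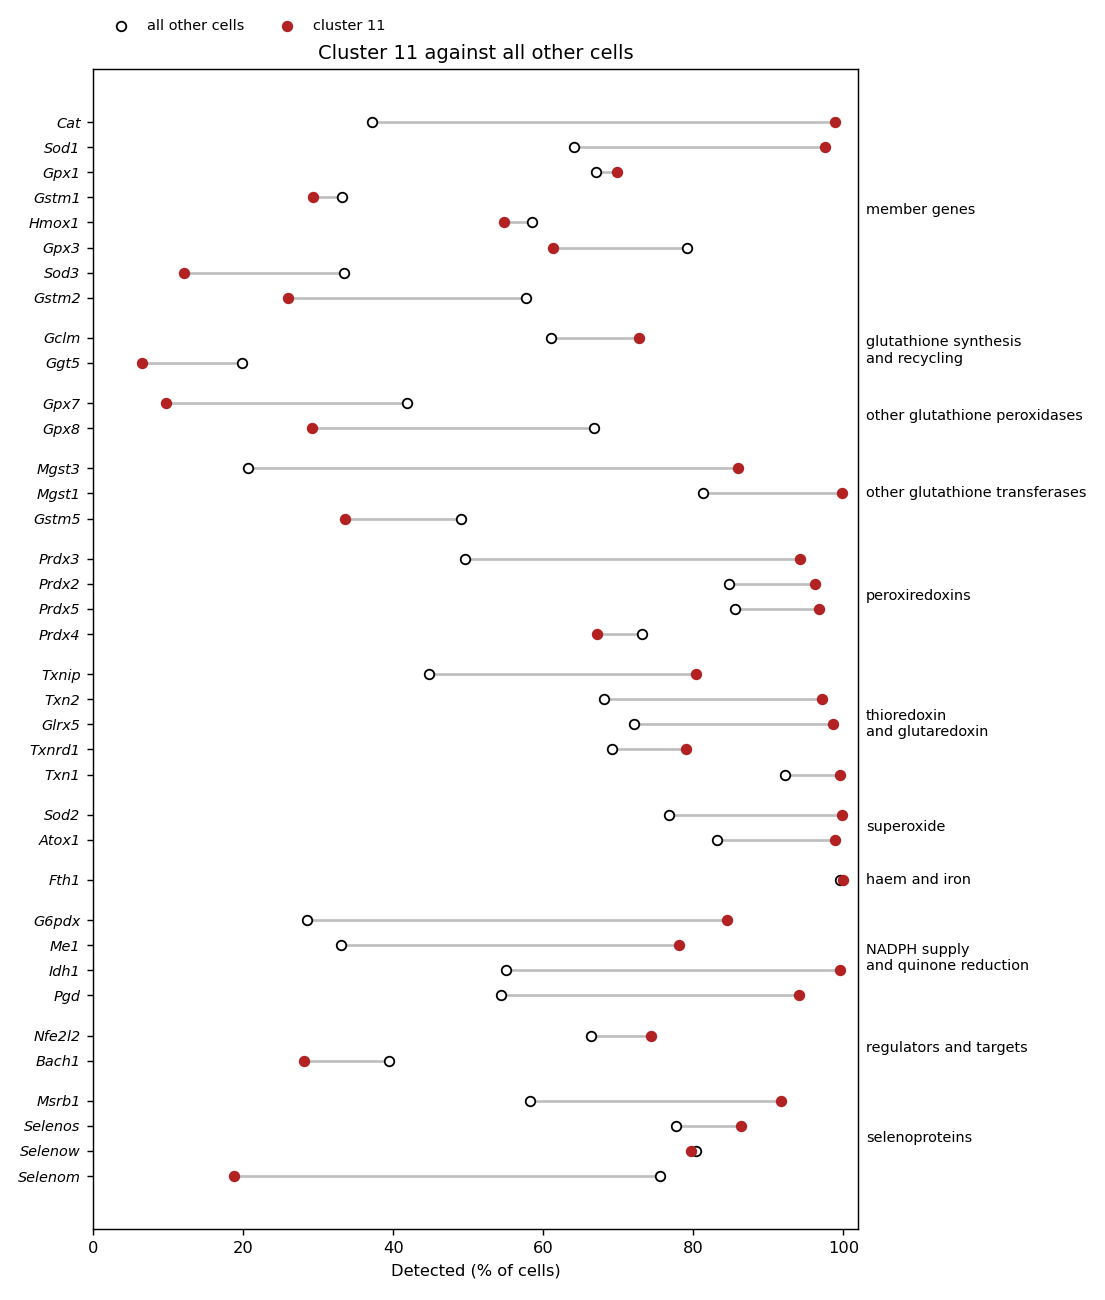
Percent of cells in which each gene was detected, in cluster 11 (red) and in all other cells (open circles), for the members and the other redox genes with an entry for cluster 11, grouped by role. All 4 NADPH genes with an entry lie to the right in cluster 11, where 44.4% of all entries were higher. Gpx7, Gpx8 and Selenom lie far to the left, as Gstm2 and Sod3 do among the members.

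In cluster 8, 4 of 18 entries of the list were higher and 6 lower, against 26.2% and 45.6% of all entries. Idh1, at 90.0% against 53.5%, and Txnip, an inhibitor of thioredoxin, at 74.8% against 43.5%, had the largest positive differences. Selenom, at 48.3% against 76.4%, and Gclm, at 35.9% against 62.8%, were far lower, with Gpx7 at 16.5% against 42.8%. In cluster 6, 3 of 18 entries were higher and 3 lower, against 51.9% and 14.9% of all entries. Gclc, at 54.2% against 22.8%, and Prdx4, a peroxiredoxin of the endoplasmic reticulum, at 82.7% against 72.4%, had the largest positive differences. The median over all entries of cluster 6 was 10.7 points, and Prdx4 differed by 10.3 points. Gpx7, at 27.9% against 42.4%, and Selenom, at 63.3% against 75.7%, had the largest negative ones. All 26 entries of the list in cluster 4 and all 10 in cluster 10 had lower detection than elsewhere, and 23 and 10 of them reached the minimum, beside 92.8% and 98.5% of all entries of these clusters. The largest negative differences were those of Selenow, -75.8 points, and Selenom, -74.8 points, in cluster 4, and of Mgst1, -67.2 points, and Sod2, -67.0 points, in cluster 10.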

How the data were processed

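Cells of 8 cultures were captured with a 3′ droplet chemistry, mapped by the authors to mm10 with Cell Ranger 6.0.0 (per the labels), aggregated after read-depth normalization, filtered on genes per cell and mitochondrial share, and clustered in Seurat without immune, glial and endothelial cells. Detection was deposited as the fraction of cells with a transcript, inside a cluster and in all other cells, and is printed as percent. Another 3 deposited columns hold the authors' own comparison of each cluster with the rest, as log2 fold changes, p-values and adjusted p-values, and were not used. Only entries past the authors' minimums for fold change and detection are in the table, and the larger of the 2 fractions was never under 10.1%. How doublets were treated is not given in the sources used here. The number of unused columns with values per sample is 0.

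Cluster shares were solved by least squares from the 10 genes listed for every cluster, on the ground that a gene's total detection cannot depend on the cluster it is computed from, and it agreed within 0.2 percentage points for 2687 of 2687 genes with at least 2 entries. Symbols turned into dates (7, in 35 entries) were left as deposited. The solver was tested on simulated data. Loci and transcripts are from GENCODE vM21 (GRCm38). Of the member genes, Sod1 overlaps Scaf4 on the other strand, and the strand setting of the counting is not given in the sources used here. Python 3.11.15 with numpy 2.4.6, pandas 2.3.3 and matplotlib 3.10.9 was used.

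The members, lists and minimum of 10 points were chosen with earlier results of these data known. All members are named in every cluster that lists them. Of the redox list, the named genes are the 2 with the largest and the 2 with the smallest difference in a cluster, and further ones chosen after their values were seen. Profiles were compared for members with entries in at least 6 clusters other than 4 and 10, naming the 2 genes with the smallest root mean square gap.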

Additional observations from a re-analysis of the deposited data

How the results depend on the processing

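No paired analysis was possible because cells of every culture were pooled before detection was computed, and for that reason no sample could be left out in turn. Leaving out clusters 4 and 10 moved the lower member entries from 17 to 7 and the lower entries of the redox list from 55 to 22, by construction, since fewer entries are counted. A minimum of 20 points moved the higher entries of that list from 63 to 31, also by construction. With a minimum of 5 or 20 points, the member counts were 19 and 11 higher and 21 and 12 lower. On scales of ratio, log odds or a Poisson mean, each member with 2 or more entries kept its highest cluster, and the 25 entries with more detection in the cluster stayed 25. Detection over all cells moved by at most 0.2 percentage points with other shares. The depth reached in each cluster is unknown, and genes detected in nearly all cells, such as Gpx4, leave little room for higher detection in a cluster.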

Other observations

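Selenoproteins outside the members parted between clusters. Selenop, the secreted selenium carrier, had a detection of 91.6% in cluster 8 and 62.3% outside it, 87.9% and 60.8% for cluster 2, and 44.5% and 67.3% for cluster 0. Selenom ran the other way in cluster 0, with 95.5% against 71.3%, and in cluster 8, with a difference of -28.1 points. In cluster 2 its difference was -6.0 points, under the minimum. It was detected in 97.2% against 71.1% in cluster 1, for which Selenop has no entry. Selenow, a small selenoprotein with a redox motif, was detected in 96.0% against 77.9% in cluster 1 and 92.4% against 79.0% in cluster 3. Its differences of 18.1 and 13.4 points stand beside medians of 16.0 and 9.4 points over all entries of these clusters. These differences were not tested.

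Among the redox genes listed for cluster 7, where Gpx3 was highest, Ggt5, which cleaves glutathione conjugates outside the cell, was detected in 61.7% of its cells against 16.6% of the others, and Gstt1, a theta-class transferase, in 32.3% against 11.9%, its single entry. The lowest differences there were those of Gsto1, an omega-class transferase, -7.8 points, and Fth1, the ferritin heavy chain, 0.5 points.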
